A study of Homo sapiens with 6 samples.

Results

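KYSE70 is an established human cell line of esophageal squamous cell carcinoma, and here it carried a doxycycline-inducible short hairpin RNA against SOX2. Of the 6 poly(A) RNA libraries of the series, 3 belong to this line: 2 collected at day 4, after 4 days of doxycycline at 50 ng/ml, and 1 collected at day 0 without doxycycline. The labels give the construct as pLKO-Tet-On-shSOX2. The other 3 libraries come from KYSE70 cells with pLKO-Tet-On-shTP63, again 2 at day 4 of the same doxycycline treatment and 1 at day 0, and are used only for comparison. The genes described were chosen by level alone: of 48644 genes in the table, 10536 had a mean linear value of at least 1 RPKM (reads scaled to gene length and library size) over the 6 libraries. The stated aim was to find genes that respond to loss of SOX2 in these cells. The day 4 libraries are called library 2 and library 1 after the numbers in their titles, and are always given in that order. Those numbers could mark replicates or different hairpins, and the day 0 library is number 2, so library 1 may have no day 0 library of its own. Both differences share that single day 0 library. No line without a targeting hairpin was analysed here, so the hairpin's effect cannot be told apart from that of doxycycline or time within the line.

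SOX2 is a transcription factor of the HMG-box class that binds short AT-rich sites in the minor groove of DNA. It is required for the identity of the foregut epithelium that becomes the esophagus and is a frequent target of copy number gain in squamous carcinomas. TP63, which it accompanies in stratified epithelia, encodes the p63 transcription factor of basal cells.

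All levels below are on the log2(RPKM + 1) scale, on which a difference understates the fold change of a low gene, and errors after ± are limma standard errors (day 4 n = 2, day 0 n = 1). Whether separate cultures were used is not stated, so the p-values cover the spread among these libraries alone. The read depth is unknown, since the values hold no counts. The libraries had 21530 to 23509 genes above 0, except the shTP63 day 0 library with 16167. All 7 squamous markers examined (TP63, KRT5, KRT14, DSG3, DSC3, SFN and PKP1) were above 0 in every library. Their summed linear level was 439 and 907 RPKM in the shSOX2 day 4 libraries, against 1010 RPKM at day 0. KRT5 gave most of this sum, at 8.39 and 9.61 at day 4, against 9.75 at day 0. KRT14, SFN and PKP1 were also lower in both day 4 libraries, TP63 and DSC3 were higher in both, and DSG3 was split. The leukocyte markers CD3D and CD3E, the endothelial marker KDR and the neural marker STMN2 were listed at 0 in all 6 libraries. The 8 leukocyte markers, of which CD68 gave most, summed to 1.65 and 1.86 RPKM at day 4, against 2.81 RPKM at day 0. The 6 fibroblast markers, of which COL1A1 gave nearly all, summed to 3.09 and 2.83 RPKM at day 4, against 1.84 RPKM at day 0. In bulk RNA, fewer cells of a type and less RNA per cell cannot be told apart.

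The hairpin's own target stood at 5.65 and 4.67 at day 4, against 6.25 at day 0. SOX2 was thus lower in both induced libraries, by 0.61 in library 2 and by 1.59 in library 1, and remained well above 0 in each. The mean difference was -1.10 ± 0.45 and did not pass the test over all genes (limma adjusted p = 0.469). In the shTP63 line SOX2 stood at 5.55 and 5.41 at day 4, against 5.69 at day 0, so library 2 of the shSOX2 line lay above both induced shTP63 libraries and close to the uninduced one.

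Across the 10536 genes, limma called 0 (0%) at an adjusted p under 0.05, and 1094 (10.4%) had an unadjusted p under 0.05. The smallest adjusted p was 0.106. Genes are therefore described by size. A rule of size was used: a gene had to differ from day 0 by at least 2-fold, in 1 direction, in library 2 and in library 1. It was met by 365 genes (3.46%), of which 261 (2.48%) were higher and 104 (0.987%) lower. Without the libraries in which they were high (day 4 for higher genes, day 0 for lower genes), 12 of the 261 and 9 of the 104 would have missed the minimum level, so they had to differ. Of all, 155 (1.47%) higher and 56 (0.532%) lower genes were also past that fold from the day 0 library of the shTP63 line. The uninduced libraries of the 2 lines were themselves at least 2-fold apart at 487 genes. Fitted on the 3 shSOX2 libraries alone, limma called 14 genes: TSPAN7, C1S, C1R, CA11, IL20RB, CCL2 and RP11-728F11.6, and on the lower side SPRR3, CNN1, RASL11A, CTSL2, KRT6A, KRT6B and KRT6C. Leaving out 1 induced shTP63 library gave 12 calls when it was library 1 and 11 calls when it was library 2.

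**Figure D1:**
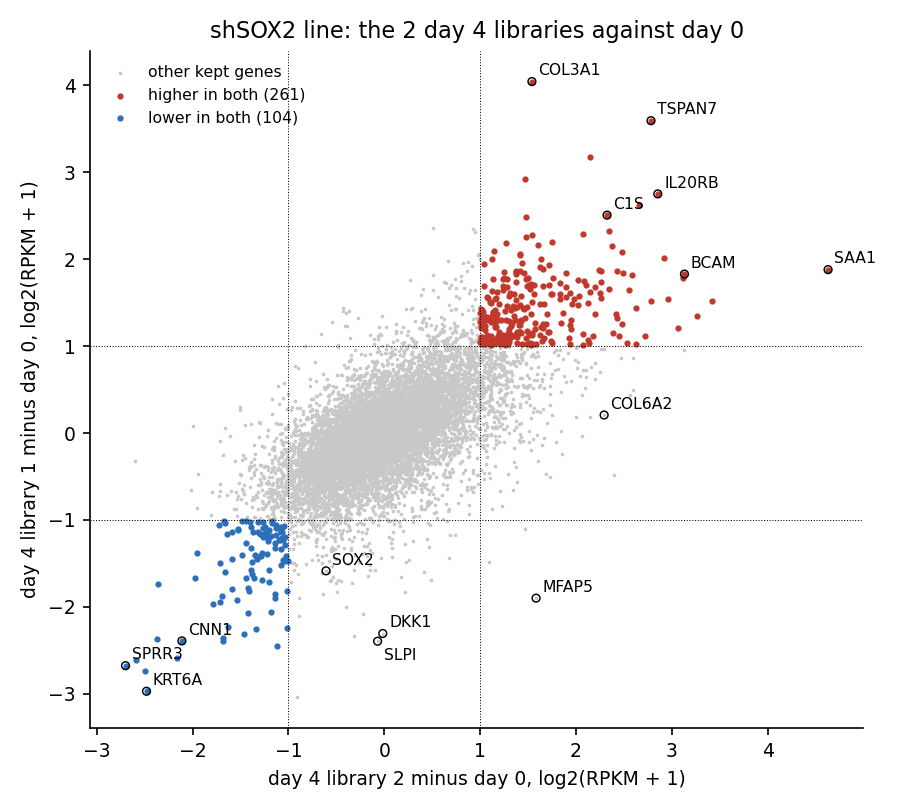
Difference from day 0 in day 4 library 2 (horizontal axis) and day 4 library 1 (vertical axis), both in log2(RPKM + 1), for 10536 genes. Red points are the 261 genes at least 2-fold higher in both libraries and blue points the 104 lower in both; dotted lines mark 2-fold, and circles mark named genes, with SLPI and DKK1 low in library 1 only.

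The gene with the smallest p on the higher side was TSPAN7, a tetraspanin of the cell surface. It stood at 4.14 and 4.95 at day 4, against 1.36 at day 0, a difference of 3.19 ± 0.42 (limma adjusted p = 0.220). In the shTP63 line it had 2.69 and 2.34 at day 4, against 2.07 at day 0, all below both induced shSOX2 libraries. The classical complement proteases C1R and C1S lie side by side on chromosome 12. C1S stood at 3.61 and 3.79 at day 4, against 1.28 at day 0, and C1R at 2.57 and 3.61 at day 4, against 0.43 at day 0. Both were also higher at day 4 in the shTP63 line, where C1S had 3.64 and 3.49 at day 4, against 1.5 at day 0. IL20RB, a receptor subunit for cytokines of the interleukin-20 group, had 4.85 and 4.74 at day 4, against 1.99 at day 0 (difference 2.8 ± 0.75, limma adjusted p = 0.368). The monocyte-attracting chemokine CCL2 had 3.64 and 3.60 at day 4, against 0.98 at day 0. For CCL2 the shTP63 line had 0.58 and 2.22 at day 4, against 0.87 at day 0, so its day 4 libraries did not lie together there. BCAM, a laminin-binding surface glycoprotein, reached 8.04 and 6.73 at day 4, against 4.91 at day 0.

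For other large differences the induced libraries lay far from each other. SAA1, an acute-phase protein, had 5.71 and 2.95 at day 4, against 1.07 at day 0, but 4.06 in the shTP63 day 0 library, so library 1 was below one uninduced line. COL3A1, a fibrillar collagen, had 4.78 and 7.29 at day 4, against 3.24 at day 0. In the shTP63 line COL3A1 had 6.47 and 5.79 at day 4, against 2.13 at day 0. Of the 6 fibroblast markers, COL1A1 stood at 2.02 and 1.89 at day 4, against 1.49 at day 0, and DCN and LUM were listed at 0 in all 3 shSOX2 libraries; the summed fibroblast level given above was higher at day 4, and its part in the COL3A1 values was not tested. INHBE, an activin subunit, had 3.90 and 2.00 at day 4, against 0.48 at day 0. Among genes with closely matching induced libraries, the heparan sulfate proteoglycan SDC4 had 4.73 and 4.47 at day 4, against 2.71 at day 0. The bone morphogenetic protein BMP4 had 2.96 and 2.44 at day 4, against 0.76 at day 0. MAFA, a bZIP transcription factor, had 3.37 and 3.39 at day 4, against 1.6 at day 0. The interferon-induced membrane protein gene IFITM1, which has near-identical copies and is therefore uncertain, had 4.64 and 4.25 at day 4, against 2.16 at day 0. The mean differences of SDC4, BMP4, MAFA and IFITM1 were 1.89, 1.94, 1.77 and 2.28. In the shTP63 line they were 0.75, 1.79, 1.66 and 0.95, so BMP4 and MAFA were higher at day 4 by similar amounts in both lines.

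**Figure D2:**
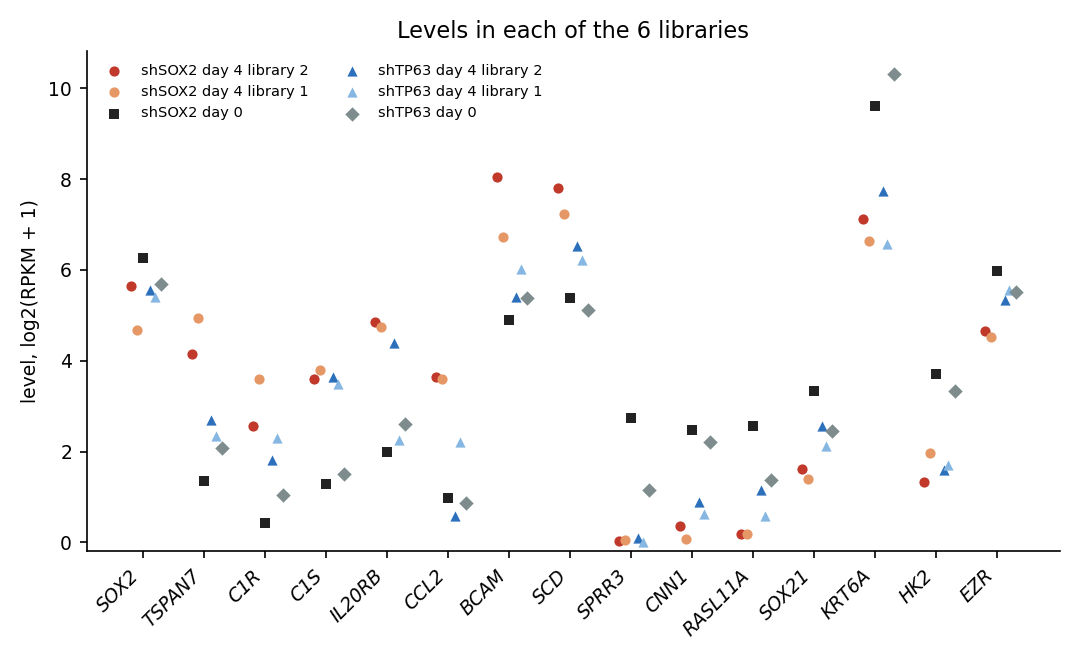
Level in log2(RPKM + 1) (vertical axis) of 15 named genes (horizontal axis) in each library. Circles are the shSOX2 day 4 libraries, black squares shSOX2 day 0, triangles the shTP63 day 4 libraries and diamonds shTP63 day 0; SPRR3 stood at 0.03 and 0.06 in the induced shSOX2 libraries, against 2.73 at day 0.

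On the lower side, SPRR3, a precursor of the cornified envelope, had the smallest p of all genes. It stood at 0.03 and 0.06 at day 4, against 2.73 at day 0, a difference of -2.69 ± 0.26 (limma adjusted p = 0.106). CNN1, an actin-binding calponin of contractile cells, had 0.37 and 0.08 at day 4, against 2.48 at day 0 (-2.25 ± 0.29, limma adjusted p = 0.220). The small GTPase gene RASL11A had 0.18 and 0.19 at day 4, against 2.56 at day 0. These 3 genes were close to the floor of the scale in both induced libraries. SPRR3 and RASL11A met the minimum level only through the shSOX2 day 0 library, with linear means of 0.273 and 0.722 RPKM over the other 5 libraries, so their difference from it was built into the selection. NRP2, a co-receptor for semaphorins and VEGF, had 0.94 and 0.77 at day 4, against 2.74 at day 0. HK2, a hexokinase, had 1.34 and 1.96 at day 4, against 3.70 at day 0, and in the shTP63 line 1.6 and 1.70 at day 4, against 3.34 at day 0. C8orf4 had 1.15 and 1.46 at day 4 of the shSOX2 hairpin, against 3.13 at day 0, while the shTP63 line had 3.35 and 3.49 at day 4, against 3.37 at day 0. Its response differed between the lines by -1.88 ± 0.46, which did not pass (limma adjusted p = 0.995). Over all genes that test called 0 (0%) of 10536, with a smallest adjusted p of 0.962 and 479 genes (4.55%) at an unadjusted p under 0.05. SOX21, a relative of SOX2 with the same kind of DNA-binding domain, had 1.62 and 1.39 at day 4, against 3.33 at day 0. CTSL2, a lysosomal cysteine protease of stratified epithelium, had 4.99 and 4.56 at day 4, against 7.15 at day 0, but 5.00 in the shTP63 day 0 library. The simple epithelial keratin partners KRT8 and KRT18 were both lower: KRT8 had 6.20 and 6.41 at day 4, against 7.92 at day 0, and KRT18 had 4.56 and 4.70 at day 4, against 6.15 at day 0. The KRT6 and beta-tubulin TUBB2 genes are near-identical copies whose reads may be split, so KRT6A (7.13 and 6.64 at day 4, against 9.61 at day 0) and TUBB2A (3.21 and 2.49 at day 4, against 4.89 at day 0) are uncertain as single genes. The squamous marker sum given above, most of it KRT5, was lowest in library 2, and its part in these values was not tested.

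The upstream sequence is shown for 4 of the lower genes, because they include the genes with the smallest p and a divergent sense and antisense pair. Each is the 250 bases before the annotated start, 5′ to 3′ on the gene's strand, from RefSeq on GRCh38.p14: CNN1 at chr19:11538601-11538850 (+), SPRR3 at chr1:153001499-153001748 (+), SOX21 at chr13:94712546-94712795 (-) and SOX21-AS1 at chr13:94712466-94712715 (+). Capitals mark ACAATG or ACAAAG, core words bound by SOX proteins, searched on both strands.
CNN1: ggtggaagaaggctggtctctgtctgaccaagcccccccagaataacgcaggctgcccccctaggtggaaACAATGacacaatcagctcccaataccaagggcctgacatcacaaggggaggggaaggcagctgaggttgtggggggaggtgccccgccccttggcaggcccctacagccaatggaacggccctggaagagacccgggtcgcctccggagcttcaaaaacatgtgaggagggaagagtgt
SPRR3: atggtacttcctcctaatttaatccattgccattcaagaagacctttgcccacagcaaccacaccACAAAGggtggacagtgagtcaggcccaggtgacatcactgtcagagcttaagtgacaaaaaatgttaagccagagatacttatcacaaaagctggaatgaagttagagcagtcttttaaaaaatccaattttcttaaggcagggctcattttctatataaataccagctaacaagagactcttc
SOX21: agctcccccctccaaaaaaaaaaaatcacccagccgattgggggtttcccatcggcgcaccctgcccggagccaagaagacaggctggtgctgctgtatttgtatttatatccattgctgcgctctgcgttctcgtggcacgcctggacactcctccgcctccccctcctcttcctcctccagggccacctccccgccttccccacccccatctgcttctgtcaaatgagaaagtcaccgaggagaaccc
SOX21-AS1: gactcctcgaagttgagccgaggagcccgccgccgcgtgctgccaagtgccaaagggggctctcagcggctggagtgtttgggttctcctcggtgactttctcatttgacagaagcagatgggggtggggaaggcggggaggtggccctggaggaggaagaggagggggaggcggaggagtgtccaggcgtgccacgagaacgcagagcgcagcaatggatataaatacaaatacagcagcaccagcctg
CNN1 holds a single ACAATG and SPRR3 a single ACAAAG, and neither word occurs in the windows of SOX21 and SOX21-AS1, which overlap on opposite strands. Of 27305 such windows 9.45% held ACAATG and 13.7% held ACAAAG. Among the 7342 kept genes with a window the shares were 4.73% and 8.16%. Of 75 lower genes 6 held ACAATG (8%) and 5 held ACAAAG (6.67%), and of 169 higher genes 4 held ACAATG (2.37%) and 15 held ACAAAG (8.88%). A match is a run of letters and not a bound site. RefSeq windows were matched for 85 of the 107 named genes past the 2-fold rule.

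The tetraspanins lay higher as a whole family; they are membrane-spanning proteins that organise surface partners into microdomains. All 17 kept members were higher in both day 4 libraries, where 33.3% of all genes were, with a median difference of 0.93 against -0.05 over all 10536 genes. The median was 1.12 in library 2 and 0.80 in library 1, and 0.47 in the shTP63 line. At least 2-fold higher in both were 7 of 17, against 2.48% of all genes: TSPAN7, TSPAN15, TSPAN33, CD82, TSPAN9, CD9 and TSPAN3. Of the 7, 4 were also 2-fold from the shTP63 day 0 library. TSPAN15, a partner of the sheddase ADAM10, had 5.21 and 4.85 at day 4, against 2.97 at day 0, although the shTP63 day 0 library had 4.16. CD9, among the most abundant members, had 7.39 and 7.14 at day 4, against 5.98 at day 0. The exosome marker CD63 had 6.85 and 6.88 at day 4, against 5.93 at day 0, short of 2-fold. The smallest difference in the family was that of TSPAN4, at 2.26 and 1.77 at day 4, against 1.44 at day 0.

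Tetraspanins were part of a wider pattern, looked for after values had been seen: genes that encode hydrophobic protein segments lay higher. Proteins of 9000 kept genes were scanned for stretches of 19 residues with a mean Kyte-Doolittle hydropathy of at least 1.6, a length and value typical of membrane-spanning helices. Of 6163 genes with no such stretch 60 (0.974%) were at least 2-fold higher in both libraries and 76 (1.23%) lower. With 1 stretch, 82 of 1536 (5.34%) were higher and 14 (0.911%) lower. With 2 to 3, 51 of 731 (6.98%) were higher and 3 (0.41%) lower, and with 4 or more, 34 of 570 (5.96%) were higher and 0 lower. The median difference in library 2 was -0.20, 0.13, 0.44 and 0.47 over these classes of 0, 1, 2 to 3 and 4 or more stretches. Library 1 had medians of -0.12, 0.09, 0.27 and 0.30 in the same order. Both induced libraries thus showed the gradient, with a smaller span in library 1.

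In the shTP63 line the corresponding medians ran only from -0.03 with no stretch to 0.07 with 2 to 3 and 0.03 with 4 or more in library 2, and from -0.05 to 0.13 and 0.08 in library 1. Against the shTP63 day 0 library, library 2 of the shSOX2 line had medians of -0.26 with no stretch and 0.63 with 4 or more, and library 1 had -0.17 and 0.46. The 2 uninduced libraries also differed by class: shTP63 day 0 minus shSOX2 day 0 was 0.06 with no stretch and -0.13 with 4 or more. After centring each gene on its mean over the 6 libraries, the median of genes with 2 or more stretches minus that of genes with none was 0.53 and 0.28 in the shSOX2 day 4 libraries, against -0.13 at day 0. It was -0.22 and -0.12 in the shTP63 day 4 libraries, against -0.29 at day 0. These 2 shSOX2 libraries were the only ones of the 6 above 0. Centring makes the 6 values offset each other, so the signs of the others are not separate evidence. Transcript GC content was 51% with no stretch and 53.2% with 4 or more. Within each of 5 GC classes of equal size, genes with a stretch lay above those without by 0.41 to 0.57 in library 2 and by 0.21 to 0.35 in library 1.

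Signal-like segments near the start of the protein marked the group further. Of 1211 genes with both a stretch of 10 residues of mean hydropathy of at least 2 within the first 40 residues and a longer stretch anywhere, 120 (9.91%) were higher and 5 (0.413%) lower. Of 5840 genes with neither, 34 (0.582%) were higher and 74 (1.27%) lower. Of 323 genes with only the segment near the start, 26 (8.05%) were higher and 2 (0.619%) lower. Of 1626 genes with a stretch but no such segment, 47 (2.89%) were higher and 12 (0.738%) lower. The last shares were near the 2.48% and 0.987% of all genes. The medians of these 1626 were 0.09 in library 2 and 0.06 in library 1, against -0.22 and -0.12 with neither. Stretches were counted over the whole protein, including its start. Counted from the lists, 193 of the 227 higher genes with a protein (85%) had either kind of segment, as had 19 of 93 lower genes (20.4%) and 3160 of all 9000 (35.1%).

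**Figure D3:**
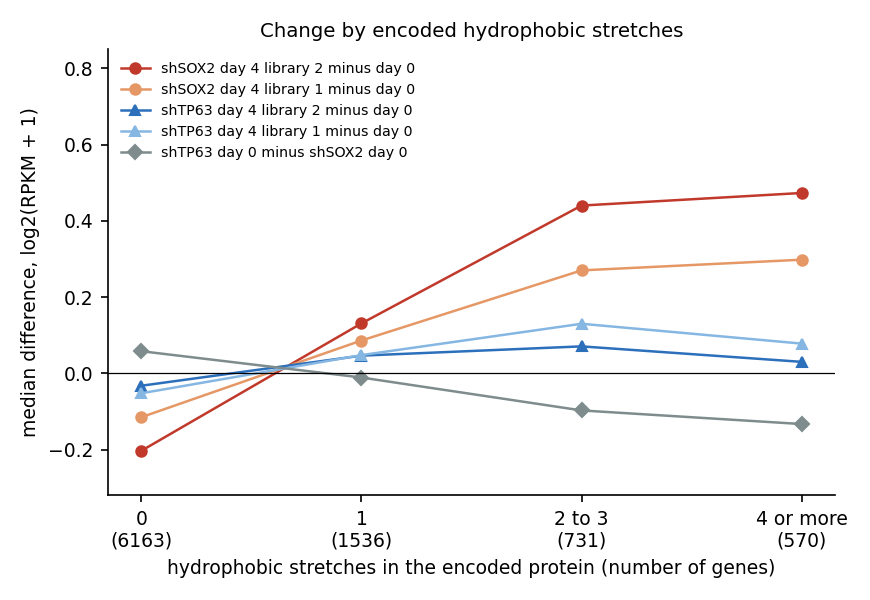
Median difference in log2(RPKM + 1) (vertical axis) by the number of hydrophobic stretches in the encoded protein, with gene numbers in parentheses (horizontal axis). The shSOX2 day 4 libraries reach 0.47 and 0.30 with 4 or more stretches, while the shTP63 day 4 libraries reach 0.03 and 0.08; the grey line compares the uninduced libraries.

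Among contact-signalling proteins, 11 of the 12 kept Eph receptors and ephrins were higher in both libraries, against 33.3% of all genes, and EFNB2 was lower in both. By the size rule 2 were higher and 1 lower, and 0 of these 3 were also 2-fold from the shTP63 day 0 library. EFNB2, a ligand that marks arteries and growing epithelia, had 3.46 and 2.54 at day 4, against 4.8 at day 0. EFNB1 had 5.86 and 6.26 at day 4, against 4.58 at day 0. In the shTP63 line EFNB1 had 4.11 and 4.54 at day 4, against 5.07 at day 0. The family median was 0.78 in the shSOX2 line and 0.03 in the shTP63 line. Of the 12 members 11 encode a hydrophobic stretch, a class that lay higher as a whole. Ephrin EFNA3 was also past 2-fold, at 1.5 and 1.72 at day 4, against 0.42 at day 0. EFNA3 met the minimum level only through the day 4 libraries (linear mean 0.784 RPKM over the others), so its difference was built into the selection.

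Secreted factors of the insulin-like growth factor axis had 3 of 13 members past the rule, all higher (2.48% of all genes were) and all binding proteins, and 0 of them were also 2-fold from the shTP63 day 0 library. IGFBP3 had 7.48 and 7.38 at day 4, against 5.65 at day 0, but 7.19 in the shTP63 day 0 library. IGFBP2 and IGFBP5, neighbours on chromosome 2, differed by 1.74 ± 0.38 and 1.73 ± 0.63, and stood at 3.53 and 1.46 in the shTP63 day 0 library. The intracellular adaptor IRS1 had 2.72 and 1.24 at day 4, against 2.82 at day 0. Among interleukin receptors 10 of 13 were higher in both libraries, against 33.3% of all genes, and 0 lower, with a median of 0.67. IL10RB, the shared subunit of the interleukin-10 group of receptors, had 3.55 and 3.18 at day 4, against 2.04 at day 0. Among the G protein-coupled receptors 20 of 27 were higher in both libraries, against the same 33.3%, and 2 were lower in both. All 13 interleukin receptors and 26 of the 27 G protein-coupled receptors encode a hydrophobic stretch. These families were not compared with other genes of that class, which lay higher as a whole. The sphingosine-1-phosphate receptor S1PR5 had 3.86 and 4.77 at day 4, against 2.59 at day 0, and GPRC5C had 1.97 and 2.07 at day 4, against 0.96 at day 0.

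Of 17 kept matrix metalloproteinases, ADAM and ADAMTS proteases and TIMP inhibitors, 11 were higher in both libraries and 2 lower in both. The shares of all genes were 33.3% and 40.2%. Their median was 0.80 in library 2 and 0.36 in library 1. TIMP3, a matrix-bound metalloproteinase inhibitor, had 4.88 and 3.97 at day 4, against 1.96 at day 0, and 3.29 in the shTP63 day 0 library. MMP14, a membrane-anchored collagenase, had 5.33 and 5.16 at day 4, against 3.67 at day 0. MMP11 had 3.59 and 3.54 at day 4, against 1.70 at day 0, and TIMP2 was likewise past the rule. The secreted aggrecan-cleaving proteases ADAMTS1 and ADAMTS15 were the lower members: ADAMTS1 had 1.79 and 1.61 at day 4, against 2.92 at day 0, and ADAMTS15 0.68 and 0.82 at day 4, against 1.98 at day 0. Of the 17, 4 were past the rule as higher and 2 as lower, against 2.48% and 0.987% of all genes. Only 2 of them were also 2-fold from the shTP63 day 0 library. ADAMTS15 met the minimum level only through the shSOX2 day 0 library (linear mean 0.871 RPKM over the others), so its difference was built into the selection.

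Several enzymes that build lipids were higher. SCD, which inserts the first double bond into saturated fatty acids, had 7.81 and 7.24 at day 4, against 5.38 at day 0 (difference 2.15 ± 0.38, limma adjusted p = 0.294). In the shTP63 line SCD had 6.53 and 6.23 at day 4, against 5.11 at day 0. The desaturases FADS1 and FADS2, adjacent on chromosome 11, differed by 1.30 ± 0.40 and 1.15 ± 0.42. DGAT2, which makes triglycerides, had 2.81 and 2.29 at day 4, against 1.26 at day 0. With SCD5 these were the 5 of 30 fatty acid enzymes past the rule as higher, against 2.48% of all genes. By the rule 0 were lower, against 0.987% of all genes. Of the 30, 21 were higher and 3 lower in both libraries, against 33.3% and 40.2% of all genes, with a median of 0.55. The mitochondrial oxidation genes HADHA and ACADVL, picked after their values were seen, were near day 0, at differences of -0.02 ± 0.38 and -0.11 ± 0.42. SREBF1 and SREBF2, the sterol-regulated activators of such enzymes, were both past the rule. SREBF1 had 5.59 and 5.21 at day 4, against 4.01 at day 0. SREBF2 had 5.31 and 5.31 at day 4, against 4.19 at day 0.

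A pair of further groups was listed after values had been seen, and both hold proteins made in or sent through the secretory route. Of 48 lysosomal hydrolases and cofactors, 35 were higher and 3 lower in both libraries (33.3% and 40.2% of all genes were). The median was 0.64, and 8 were past the rule as higher, against 2.48% of all genes. Of the 8, 5 were also 2-fold from the shTP63 day 0 library. LAMP3 among them met the minimum level only through the day 4 libraries (linear mean 0.45 RPKM over the others). PSAP, the saposin precursor and the most abundant of the 8, had 8.77 and 8.70 at day 4, against 7.40 at day 0. CREG1 had 3.92 and 4.22 at day 4, against 2.30 at day 0, and the acid nuclease DNASE2 had 5.38 and 4.90 at day 4, against 3.52 at day 0. NEU1, a sialidase, split the libraries, with 4.28 and 2.10 at day 4, against 3.79 at day 0. Of 28 enzymes of glycosaminoglycan synthesis and sulfation, 23 were higher in both. All 28 encode a hydrophobic stretch, a class that lay higher as a whole. By the rule 6 enzymes were higher and 1, HS3ST1, lower, against 2.48% and 0.987% of all genes. Of those past the rule, 3 were also 2-fold from the shTP63 day 0 library. EXT1, which polymerises heparan sulfate, had 3.66 and 3.69 at day 4, against 2.10 at day 0. SULF2, which trims its sulfate groups, had 3.78 and 3.44 at day 4, against 2.08 at day 0. HS3ST1 had 1.10 and 0.96 at day 4, against 2.19 at day 0.

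**Figure D4:**
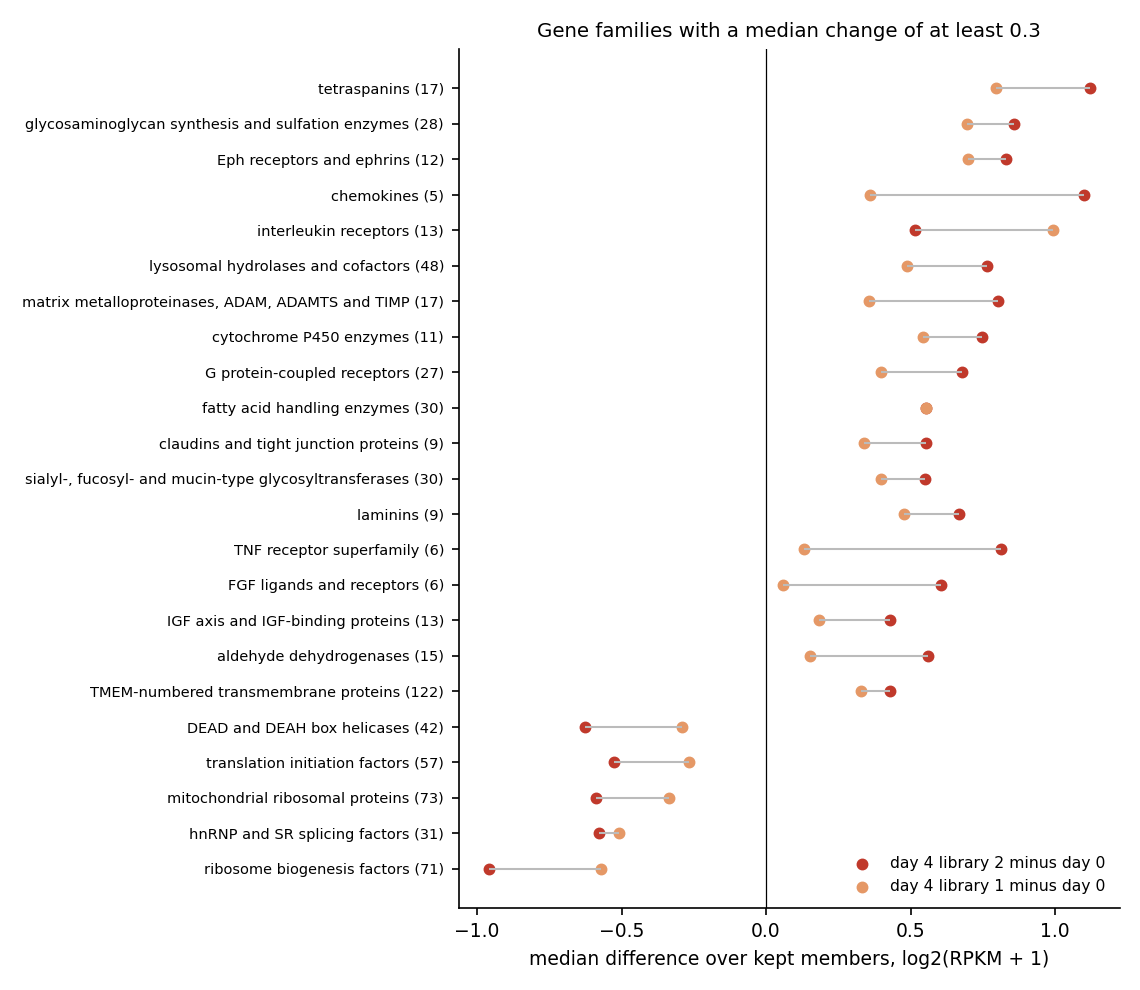
Median difference from day 0 over the kept members of each gene family (number of members in parentheses) in day 4 library 2 (red) and library 1 (orange), in log2(RPKM + 1), for families with a median of at least 0.3 in either direction. Tetraspanins lie at 1.12 and 0.80, and ribosome biogenesis factors at -0.96 and -0.57.

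Several lists of RNA-handling and protein synthesis genes lay lower, and so, by less, did other lists such as the dual specificity phosphatases (median -0.23) and Rab GTPases (median -0.19). Of 31 kept hnRNP and SR splicing factors, 28 were lower in both libraries and 0 higher, where 40.2% of all genes were lower in both, and the median was -0.52. Of the 29 with a protein sequence 0 encode a hydrophobic stretch, and all genes without a stretch had a median of -0.16. HNRNPM had 4.92 and 5.33 at day 4, against 6.44 at day 0, and was the only member past the rule (1 of 31, against 0.987% of all genes on the lower side). Among 42 DEAD and DEAH box helicases, 32 were lower in both, 1 was higher in both and 3 were past the rule. DDX21, a nucleolar helicase of ribosomal RNA production, had 3.07 and 3.55 at day 4, against 4.71 at day 0. DDX3X had 3.45 and 3.49 at day 4, against 4.58 at day 0. DDX17 was the member that went furthest the other way, with 5.46 and 5.05 at day 4, against 4.94 at day 0. Of 57 translation initiation factors, 40 were lower in both and 10 higher in both, against 40.2% and 33.3% of all genes, with EIF4A1, the cap-binding complex helicase, at 6.50 and 6.46 at day 4, against 7.58 at day 0.

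Ribosome biogenesis factors, listed after values had been seen, were lower in both libraries for 68 of 71 members, where 40.2% of all genes were. Their medians were -0.96 in library 2 and -0.57 in library 1. The shTP63 line had a median of -0.72 for the same genes. Past the rule as lower were 7 of 71, against 0.987% of all genes, among them DDX21, GPATCH4, EBNA1BP2 and UTP14A. Of the 7, 3 were also 2-fold from the shTP63 day 0 library. RRP15 and PINX1 among them met the minimum level only through the shSOX2 day 0 library (linear means 0.964 and 0.901 RPKM over the others). EBNA1BP2 had 4.11 and 4.10 at day 4, against 5.32 at day 0. Of 73 mitochondrial ribosomal proteins, 59 were lower in both, against 40.2% of all genes. Past the rule as lower were 3 (MRPL16, MRPS11 and MRPL20), against 0.987% of all genes, and 2 were also 2-fold from the shTP63 day 0 library. MRPL16 had 3.25 and 2.8 at day 4, against 4.32 at day 0.

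Of known partners and cofactors of SOX2, 11 were kept and 1 (9.09%) was past the rule, against 3.46% of all genes. KLF4, a pluripotency partner that also acts in squamous differentiation, had 1.54 and 1.40 at day 4, against 2.82 at day 0. The related KLF5 had 3.71 and 3.40 at day 4, against 4.29 at day 0. TP63 had 3.91 and 3.93 at day 4, against 3.61 at day 0, a difference of 0.31 ± 0.32 (limma adjusted p = 0.749). Of the 50 lists with at least 5 kept members, 20 had no member past the rule, among them Rab GTPases (38 kept), F-box proteins (35) and ubiquitin-specific proteases (34), where 3.46% of all genes were past it. Of 15 aldehyde dehydrogenases 1 was higher and 1 lower by the rule, where 2.48% and 0.987% of all genes were. Single members are too few to set against these shares. ALDH1A3, a retinaldehyde-oxidising enzyme, had 3.63 and 2.92 at day 4, against 4.77 at day 0. ALDH2 differed by 1.02 ± 0.46 from its own day 0 library, but stood at 1.99 and 2.03 at day 4, against 2.54 in the shTP63 day 0 library. The glutathione transferases GSTM1 and GSTM2, near-identical neighbours and uncertain as single genes, differed by 1.26 ± 0.54 and 1.40 ± 0.45.

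Antisense transcripts mostly differed from day 0 in the same direction as their partners. Of 56 kept genes named as antisense to another kept gene, 53 pairs differed from day 0 in the same direction, and the 4 antisense genes past the rule were all paired with sense genes past it the same way. SOX21-AS1 had 1.69 and 1.30 at day 4, against 3.23 at day 0, beside the SOX21 values above. EZR-AS1 had 2.38 and 2.27 at day 4, against 3.65 at day 0, and its partner EZR, a linker of membrane and actin, had 4.65 and 4.52 at day 4, against 5.97 at day 0. IL20RB-AS1 had 1.95 and 2.08 at day 4, against 0.38 at day 0. It met the minimum level only through the day 4 libraries, with a linear mean of 0.564 RPKM over the others. Its difference was thus built into the selection. WNT5A-AS1 had 3.63 and 3.92 at day 4, against 2.15 at day 0, and WNT5A, a Wnt ligand of the non-canonical branch, had 3.50 and 3.95 at day 4, against 2.32 at day 0. Across the 56 pairs Pearson's r of the differences was 0.90, a description over pairs that share libraries. No strand-specific step is stated, so the reads of a gene and its antisense partner cannot be told apart. The widest gap among the 3 pairs of opposite sign was that of ZNFX1-AS1, with 5.79 and 6.21 at day 4, against 5.91 at day 0, beside ZNFX1 at 1.88 and 1.5 at day 4, against 2.56 at day 0.

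**Figure D5:**
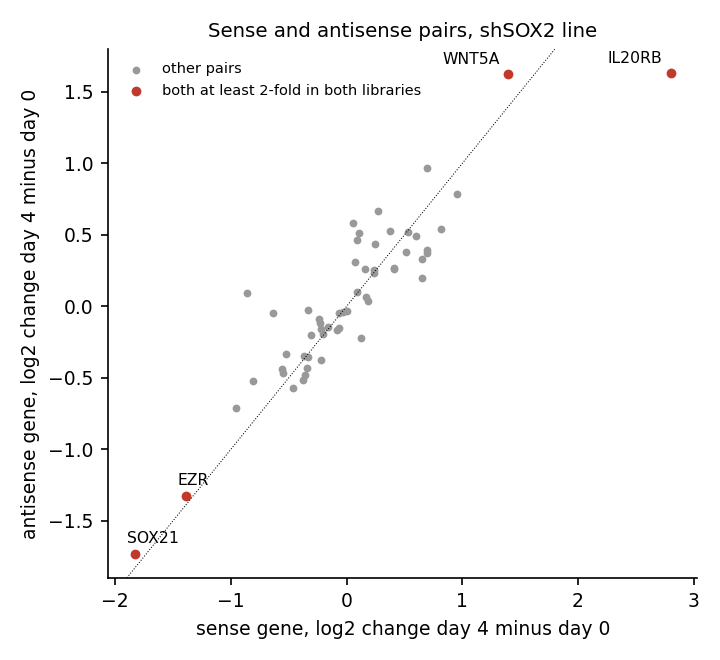
Difference between day 4 and day 0 of the sense gene (horizontal axis) and of its antisense gene (vertical axis), in log2(RPKM + 1), for 56 pairs in the shSOX2 line; the dotted line marks equality. Red points are the 4 pairs in which both genes met the size rule.

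Neighbouring genes on the chromosome were looked at in pairs. Of 9051 adjacent kept pairs, 14 (0.155%) were both higher, 7 (0.0773%) both lower and 3 opposite. In 638 pairs at least 1 gene was past the rule. Of single genes 2.48% were higher and 0.987% lower, but a share of pairs cannot be set against a share of single genes. A matching share for pairs was not computed. Besides antisense pairs, the higher pairs included genes of the same family, such as C1S with C1R, FADS1 with FADS2 and IGFBP2 with IGFBP5. Among the others were DBP with CA11, LEPREL1 with CLDN1 and TSPAN33 with SMO. CLDN1, a tight junction claudin, had 3.83 and 1.91 at day 4, against 0.57 at day 0, and 2.52 in the shTP63 day 0 library. DBP, a circadian bZIP factor, had 2.46 and 2.85 at day 4, against 1.30 at day 0. Opposite were SULF2 and PREX1, where PREX1 had 1.5 and 0.62 at day 4, against 2.68 at day 0. Small structural RNAs had medians of 0.92 over 24 snoRNAs and 1.36 over 10 snRNAs. By the rule 4 and 3 of them were higher and 0 lower, where 2.48% and 0.987% of all genes were. How far the poly(A) selection of these libraries shaped the values was not tested.

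Taken apart, library 2 lay further from day 0 than library 1. It had 702 genes (6.66%) at least 2-fold higher and 402 (3.82%) lower, against 450 (4.27%) and 298 (2.83%) in library 1. The interquartile range of its differences was 0.78, against 0.65 in library 1, although its SOX2 level was the less reduced. The 365 shared genes were 33.1% of the 1104 of library 2 and 48.8% of the 748 of library 1. Library 2 exceeded library 1 at least 2-fold at 336 genes and was exceeded by it at 178. At least 4-fold in one library and under 1.2-fold in the other were 4 genes higher in library 2 and 3 genes lower in library 1. Among those of library 2 was COL6A2, a collagen VI chain, with 4.23 and 2.14 at day 4, against 1.93 at day 0. LBH, UPK3B and AC104698.1 were the others. Lower in library 1 were SLPI, a secreted protease inhibitor, with 7.01 and 4.68 at day 4, against 7.08 at day 0, DKK1, a Wnt antagonist, with 4.59 and 2.29 at day 4, against 4.60 at day 0, and ENOSF1, with 5.09 and 3.23 at day 4, against 5.31 at day 0. At 3 genes the libraries were at least 2-fold from day 0 in opposite directions. MFAP5, a microfibril protein, had 5.77 and 2.28 at day 4, against 4.18 at day 0. SLC2A3, a glucose transporter, had 4.75 and 2.18 at day 4, against 3.66 at day 0. The third, CD24P4, had 3.21 and 0.64 at day 4, against 1.74 at day 0, and is uncertain as a near-identical copy of CD24.

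Family medians also differed between the induced libraries. Chemokines stood at 1.10 in library 2 and 0.36 in library 1, and TNF receptor family genes at 0.81 and 0.13. Interleukin receptors went the other way, at 0.52 in library 2 and 0.99 in library 1. Aldo-keto reductases had -0.23 in library 2 and 0.53 in library 1, and annexins -0.10 and -0.46. Ribosome biogenesis factors and DEAD and DEAH box helicases were lower in both libraries, and further so in library 2. The labels do not tell whether these libraries are replicates or carry different hairpins, so a gap between hairpins and a gap between replicates cannot be told apart.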

How the data were processed

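Oligo(dT) beads were used to select poly(A) RNA, random primers to copy it and an Illumina HiSeq to sequence it, per the labels' protocols. The authors deposited 1 table for all 6 libraries, named as RPKM; its deposited values fit log2(RPKM + 1), and base 2 was chosen because a natural log would assign 136.7% to 192.4% of all reads to the matched genes, against 15.5% to 16.0% with base 2. The hg19 build is named in the submitters' processing notes; aligner and counter: not given in the sources used here. Values appear quantile-normalized between libraries, from the values themselves. Genes with a mean linear value of at least 1 were kept. limma 3.58.1 in R 4.3.3 was fitted to the deposited log2 values with 4 group means, a mean-variance trend, 2 residual and 5.53 prior degrees of freedom, two-sided p and Benjamini-Hochberg adjustment, and was tested on simulated data. Alternatives changed the pseudocount, the filter, the scaling, the control library, the libraries fitted, the trend, the fold and, chosen after seeing the data, a GC correction. The spread of the single day 0 library was borrowed from the day 4 pairs. The size rule asked for 2-fold the same way in both day 4 libraries. Named were SOX2, TP63, the 15 genes per direction with the smallest p and the 10 with the largest change among those past the size rule, up to 4 members per family, and library-specific genes by fold; genes outside this rule (such as CD63, TSPAN4, NEU1, KRT18, IRS1, HADHA, ACADVL, KLF5, DDX17, PSAP, ADAMTS1, WNT5A, EZR and PREX1) were chosen after their values were seen. Members, 58 gene lists and tests were chosen with earlier results of these data known, and 5 further lists and the hydrophobic stretches after values were seen. Protein sequences came from GENCODE v29, matched by name, and upstream windows from RefSeq.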

Additional observations from a re-analysis of the deposited data

How the results depend on the processing

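The limma count of 0 became 1 with a pseudocount of 5, 14 with only the 3 shSOX2 libraries, 2 with both day 0 libraries as the control and 4 with the shTP63 day 0 library as the control, and ranged from 0 to 12 when single libraries were left out. The replicate block gave 0 calls (smallest adjusted p 0.404); deviations of same-numbered day 4 libraries correlated at -0.07, so the numbers were not taken as pairs. The difference between the responses of the lines called 0 to 5 genes when single libraries were left out. The 365 genes past the size rule became 93 with a pseudocount of 5, 594 with a pseudocount of 0.25, 878 against the shTP63 day 0 library, 1443 at 1.5-fold, 60 at 3-fold and 211 when 2-fold from each day 0 library was asked, a setting chosen after seeing the data; leaving out single libraries gave 361 to 1104, the top value resting on day 4 library 2 alone. The 8 families with at least 3 members past the rule became 2 and 16 with pseudocounts of 5 and 0.25, 5 at a mean of at least 5, 18 against the shTP63 day 0 library, and 8 to 23 when single libraries were left out. The gap of 0.52 between genes with 2 or more hydrophobic stretches and those with none became 0.28 with a pseudocount of 5 and 0.72 against the shTP63 day 0 library; with the replicate block it was 0.57. The median of the aldehyde dehydrogenases turned to -0.05 at a mean of at least 5, and ALDH2 to -0.53 against the shTP63 day 0 library. SOX2 kept its direction in all 16 alternatives. The causes of these shifts were not tested, except that a higher pseudocount shrinks differences of low genes by construction. Precision is limited by the single day 0 library.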
